A study of Mus musculus with 6 samples.

Results

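The 7 genes described here encode the cyclin-dependent kinase inhibitors of the mouse: the CIP/KIP family of Cdkn1a, Cdkn1b and Cdkn1c, and the INK4 family of Cdkn2a, Cdkn2b, Cdkn2c and Cdkn2d. They were taken by symbol, as 7 of the 49585 genes in the deposited count table, and all 7 passed the filter on low counts that left 13744 genes for testing. The cells were bone marrow leukaemia cells labelled MA9, the common short name for leukaemia driven by the MLL-AF9 fusion, grown with IL-3, IL-6 and SCF. Of the 6 samples, 3 carried loxP-flanked Gata2 alleles (Gata2 f/f) and 3 were Gata2 -/- (Gata2 KO), named Cre in the sample descriptions, so that Cre and the loss of Gata2 cannot be told apart. Every sample had received 5 uM Nutlin for 18 h before its RNA was taken. No sample without Nutlin was analysed here, so the values are levels under Nutlin and not responses to it. The submitters call the samples of a genotype independent and number them 1 to 3, and do not say whether a number stands for a leukaemia, a culture or a day.

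Cells divide when cyclin-bound kinases phosphorylate the retinoblastoma protein and release E2F factors. INK4 proteins bind CDK4 and CDK6 and keep D-type cyclins from activating them, while CIP/KIP proteins bind assembled cyclin-kinase complexes, above all those of CDK2. Nutlin keeps MDM2 from binding p53, and p53 in turn activates Cdkn1a, the best known route from p53 to arrest in G1. In blood cells the same inhibitors also accompany the exit from the cell cycle during maturation and the quiescence of stem cells.

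In this check 1 library went against its label. The Gata2 level was 33.6, 22.3 and 18.4 CPM for f/f 1, 2 and 3, where CPM is the usual depth-scaled count, here with TMM scaling between libraries. The libraries labelled Gata2 KO 1, 2 and 3 held 5.44, 43.3 and 4.33 CPM, with a log2 fold change of -0.49 ± 0.86 (SE; edgeR, adjusted p = 1.00). Every direction given for Gata2 KO below therefore includes the library labelled Gata2 KO 2, whose Gata2 level was above that of each f/f library. Without it the Gata2 value was -2.35 (edgeR, adjusted p = 0.915), and -2.36 with the library number as a block (edgeR, adjusted p = 0.00356). It was -0.03 without KO 3, -0.07 without KO 1 and -0.23 without f/f 1. Both libraries numbered 3 also stood apart. All 14 monocyte and macrophage markers were higher in both of them than in each of the other 4 libraries, and 16 of 17 proliferation genes were lower in both, against 21.1% and 20.4% of all tested genes. Total counts ran from 17138687 to 26440960.

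Several members are read from alternative starts, and a count per gene adds these up. The sequences that follow are the bases just before annotated RefSeq starts of the GRCm38.p6 genome, 5′ to 3′ on the gene's strand, without bases that GENCODE places in an exon of the gene. They are shown because they set what the rows of Cdkn1a and Cdkn2a can and cannot separate. Capitals mark matches to the p53 response motif (a pair of adjacent decamers, with at most 1 mismatch over the 20 bases) and GC boxes (GGGCGG on either strand).
Cdkn1a, first start, chr17:29090859-29090975, plus strand: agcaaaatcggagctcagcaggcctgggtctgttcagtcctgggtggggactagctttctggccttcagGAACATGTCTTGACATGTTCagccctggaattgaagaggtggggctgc
Cdkn1a, second start, chr17:29093649-29093768, plus strand: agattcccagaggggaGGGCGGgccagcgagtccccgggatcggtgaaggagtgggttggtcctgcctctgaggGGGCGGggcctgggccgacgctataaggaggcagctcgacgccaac
Cdkn2a, upstream (ARF) start, chr4:89294654-89294739, minus strand: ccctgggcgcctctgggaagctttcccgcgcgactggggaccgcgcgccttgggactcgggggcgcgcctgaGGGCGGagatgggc
Cdkn2a, downstream (p16) start, chr4:89282193-89282312, minus strand: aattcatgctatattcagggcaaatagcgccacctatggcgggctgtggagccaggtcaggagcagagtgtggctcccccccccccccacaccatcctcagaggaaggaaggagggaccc

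The first Cdkn1a start had the p53 motif at chr17:29090928-29090947, ending 32 bases before that start and 2822 bases before the second one, with 1 mismatch. Such a match lay in the 250 bases before 25 of 32851 starts in the RefSeq table (0.0761%), and in no other of the 9 windows found for 6 of the 7 members (Cdkn1c is missing from that table). The GC box was more widespread. It was present before 1 of 2 starts of Cdkn1a, of Cdkn2a and of Cdkn2c, and before the single starts of Cdkn1b and Cdkn2d, against 32.7% of all windows. The starts of Cdkn2a lie 12427 bases apart and lead into different first exons. The upstream one gives ARF, which binds MDM2, and the downstream one gives p16INK4a, which binds CDK4 and CDK6. The 250-base window of the ARF start held 40 CpG dinucleotides and that of the p16 start 7, against a median of 6 over all windows. A match in these letters is a description of the sequence, and binding was not measured.

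Per length, Cdkn1a was the most abundant inhibitor transcript and Cdkn1c the least. To compare genes, CPM were divided by the length of each gene's merged exons, which gave means over the 6 libraries of 140 ± 85.7 CPM per kb for Cdkn1a, 58.9 ± 34.4 for Cdkn2c, 35.2 ± 13.5 for Cdkn2d and 21.4 ± 13.1 for Cdkn2a (SD, n = 6). Cdkn1b followed at 5.15 ± 1.54, Cdkn2b at 1.5 ± 1.2 and Cdkn1c at 0.587 ± 0.57 CPM per kb. The same order was found in 4 of the 6 libraries. Cdkn2c and Cdkn2d changed places in the library labelled Gata2 KO 2, and Cdkn2b and Cdkn1c in that labelled Gata2 KO 1. Over the 6 libraries the ranges of each pair of neighbours in this order overlapped, other than those of Cdkn1b (3.22 to 7.62) and Cdkn2b (0.481 to 3.14). Cdkn1a made up 45.8% to 54.2% of the inhibitor transcripts per length in Gata2 f/f and 49.4% to 58.0% in Gata2 KO, so these shares overlapped between the genotypes. The sum over the family was more variable, at 135, 140 and 394 CPM per kb in Gata2 f/f 1, 2 and 3 and 230, 204 and 475 CPM per kb in those labelled Gata2 KO.

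**Figure D1:**
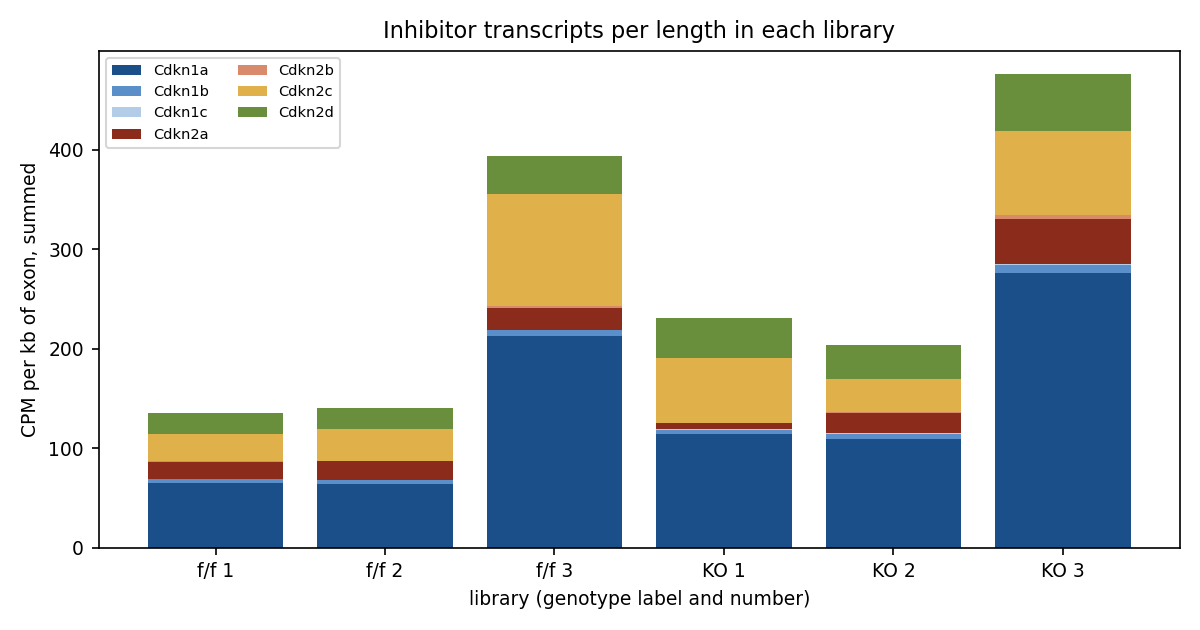
Stacked CPM per kb of exon of the 7 inhibitor genes (vertical axis, linear from 0) in each of the 6 libraries (horizontal axis, genotype label and number). Cdkn1a is the largest part of each bar, and the bars of the libraries numbered 3 are the tallest, at 394 and 475 CPM per kb.

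None of the inhibitor genes passed the test between the genotypes. All 7 had positive log2 fold changes, with a median of 0.44, against 52.5% positive and a median of 0.02 over the 13744 genes tested. Without Gata2 KO 3 the count was 3 of 7 and the median -0.05. Without Gata2 f/f 3 the count was 7 of 7 and the median 1.02. Without both libraries numbered 3 they were 6 of 7 and 0.72. No member passed edgeR's quasi-likelihood test at an adjusted p of 0.05, and neither did any other gene (0% called, with 171 genes at an unadjusted p under 0.05). Cdkn1c was the single member at an unadjusted p under 0.05 (0.0416), where 0.728% of tested genes were both higher in Gata2 KO and under that value. DESeq2 called 7 genes and limma voom none, and neither called a member. No member had all 3 Gata2 KO libraries above all 3 f/f libraries, an arrangement found for 2.64% of tested genes. The comparisons by number here and below take libraries of 1 number as pairs, which is not established for numbers 1 and 2 (see the processing section). Compared within library numbers, Cdkn1a, Cdkn1b, Cdkn1c and Cdkn2d were higher in the library labelled Gata2 KO for each of the 3 numbers, as were 20.7% of tested genes. With the number as a block these 4 had unadjusted p values under 0.05 in the upward direction, as had 7.41% of genes, but none passed adjustment over all genes (lowest adjusted p = 0.397, edgeR with block; 0% of genes called, 1473 at an unadjusted p under 0.05). DESeq2 with the block called 1.75% of the genes with an adjusted p and no member, and edgeR with the block but without the library labelled Gata2 KO 2 called 0.378% and no member. Without the library labelled Gata2 KO 2, the unblocked log2 fold changes were 0.761 for Cdkn1a, 0.49 for Cdkn1b and 2.2 for Cdkn1c. They were 0.405, 0.353, 0.4 and 0.845 for Cdkn2a, Cdkn2b, Cdkn2c and Cdkn2d. In bulk RNA, a change in the share of cells that express a gene and a change in the amount per cell cannot be told apart.

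**Figure D2:**
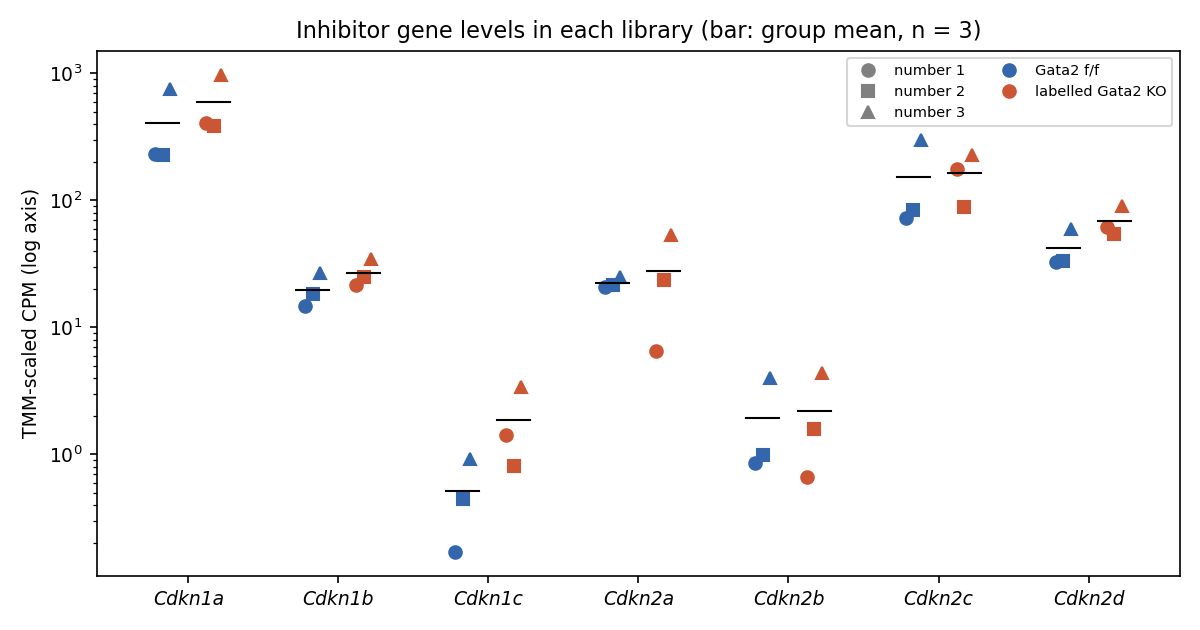
TMM-scaled CPM on a log axis for the 7 inhibitor genes, 1 point per library, with colour for the genotype label, shape for the library number and a bar for the mean of 3 libraries. The triangles of number 3 lie above the other 4 points for 5 of the 7 genes, and the genotypes overlap for each gene.

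Cdkn1a encodes p21, the p53-induced inhibitor of CDK2 complexes that also binds the replication clamp PCNA (ENSMUSG00000023067.13, GRCm38 chromosome 17, 29090976 to 29100727, plus strand). Gata2 f/f 1, 2 and 3 held 233, 228 and 758 CPM, and the libraries labelled Gata2 KO had 404, 389 and 979 CPM. Gata2 f/f 3 thus exceeded 2 of the 3 KO libraries, and the groups overlapped. The means were 406 ± 305 and 591 ± 337 CPM (SD, n = 3 each). The fitted log2 fold change was 0.54 ± 0.59 (SE; edgeR, adjusted p = 1.00). Within numbers 1, 2 and 3 the KO library was 1.74-, 1.70- and 1.29-fold higher, and the blocked fit gave a log2 value of 0.64 ± 0.17 (edgeR, adjusted p = 0.403). Without Gata2 KO 3 the unblocked value was -0.05, and without Gata2 f/f 3 it was 1.32. Of the 5 annotated transcripts, 2 begin at or next to the start that follows the p53 motif and 2 at or next to the second start, and the gene-level count does not show which was used. The annotation also places AC167363.2 across Cdkn1a on the opposite strand, a gene not analysed here.

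The other inhibitors of the CIP/KIP family were less abundant per length, and for each number the KO library held more. Cdkn1b encodes p27, an inhibitor linked to quiescence (ENSMUSG00000003031.14, chromosome 6, 134920401 to 134925513, plus strand). Gata2 f/f held 14.7, 18.3 and 26.6 CPM of it, against 21.4, 25.0 and 34.7 CPM for Gata2 KO, so that only Gata2 f/f 3 lay inside the KO range. Its spread was the smallest of the 7 genes, 2.37-fold from lowest to highest. The log2 fold change was 0.44 ± 0.32 (edgeR, adjusted p = 1.00), and it ranged from 0.20 without Gata2 KO 3 to 0.68 without Gata2 f/f 3. Cdkn1c encodes p57, an imprinted gene expressed from the maternal copy and prominent in quiescent blood stem cells (ENSMUSG00000037664.13, chromosome 7, 143458339 to 143461050, minus strand). It was counted 3, 10 and 23 times in Gata2 f/f and 30, 15 and 81 times in Gata2 KO, or 0.171, 0.446 and 0.916 CPM against 1.43, 0.814 and 3.40 CPM. Its log2 fold change of 1.85 ± 0.75 was the largest of the family and did not pass (edgeR, adjusted p = 1.00). Leaving out Gata2 KO 3 gave 1.08, and leaving out Gata2 f/f 3 gave 2.52. These counts are low. For number 1 the fold was 8.38 with an exact 95% interval of 2.60 to 42.9, for number 2 it was 1.83 with 0.767 to 4.54, and for number 3 it was 3.71 with 2.31 to 6.19, intervals that cover counting error only.

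Among the INK4 genes, Cdkn2d had the steadiest difference. It encodes p19INK4d (ENSMUSG00000096472.2, chromosome 9, 21288410 to 21291407, minus strand) and had 32.7, 33.4 and 60.0 CPM in Gata2 f/f against 61.9, 54.4 and 89.8 CPM in Gata2 KO. Gata2 f/f 3 was above the library labelled KO 2 and below KO 1 and KO 3. The log2 fold change was 0.71 ± 0.33, from means of 42.0 ± 15.5 and 68.7 ± 18.7 CPM (SD, n = 3 each; edgeR, adjusted p = 1.00). With the block it was 0.73 ± 0.17 (edgeR, adjusted p = 0.397), and DESeq2 with the block gave an adjusted p of 0.0649, the lowest for any member under any setting tried. Without Gata2 KO 3 the unblocked value was 0.45, and without Gata2 f/f 3 it was 1.02. Within numbers 1, 2 and 3 the KO library was 1.89-, 1.63- and 1.5-fold higher.

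Cdkn2c, Cdkn2a and Cdkn2b had no common direction across numbers. Cdkn2c encodes p18INK4c (ENSMUSG00000028551.14, chromosome 4, 109660876 to 109667189, minus strand). Levels of 73.2, 84.0 and 300 CPM in Gata2 f/f faced 176, 88.9 and 227 CPM in Gata2 KO. The KO library was thus 2.41-fold higher in number 1, 1.06-fold in number 2, and at 0.757 of the f/f level in number 3. The log2 fold change was 0.11 ± 0.61 (edgeR, adjusted p = 1.00). Cdkn2a, the p16INK4a and ARF gene (ENSMUSG00000044303.6, chromosome 4, 89274471 to 89294653, minus strand), was even among the Gata2 f/f libraries (20.8, 21.6 and 24.8 CPM) and uneven among the KO ones (6.50, 23.6 and 53.3 CPM). The lowest and the highest of the 6 values were both from libraries labelled KO, 8.20-fold apart, on counts of 136 and 1268. The fitted log2 fold change was 0.31 ± 0.64 without the block and -0.11 ± 0.51 with it (edgeR, adjusted p = 1.00 and 0.95), so its direction is not settled. Cdkn2b encodes p15INK4b and lies 11646 bases from Cdkn2a on the same strand (ENSMUSG00000073802.4, chromosome 4, 89306299 to 89311039). Its levels were 0.855, 0.981 and 4.02 CPM for Gata2 f/f against 0.669, 1.57 and 4.37 CPM for Gata2 KO, with a log2 fold change of 0.17 ± 0.84 (edgeR, adjusted p = 1.00). Counts were low, at 15 for f/f and 14 for KO in number 1 and 22 and 29 in number 2. The folds within numbers 1, 2 and 3 were 0.782, 1.60 and 1.09. Their exact 95% intervals, for counting error only, were 0.35 to 1.74, 0.89 to 2.93 and 0.818 to 1.44, and each includes 1. Across the 6 libraries Cdkn2a and Cdkn2b were both lowest in KO 1 and highest in KO 3. Without Gata2 KO 3 the log2 fold changes of Cdkn2a, Cdkn2b and Cdkn2c were -0.59, -0.83 and -0.23. Without Gata2 f/f 3 they were 0.365, 1.23 and 1.02.

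**Figure D3:**
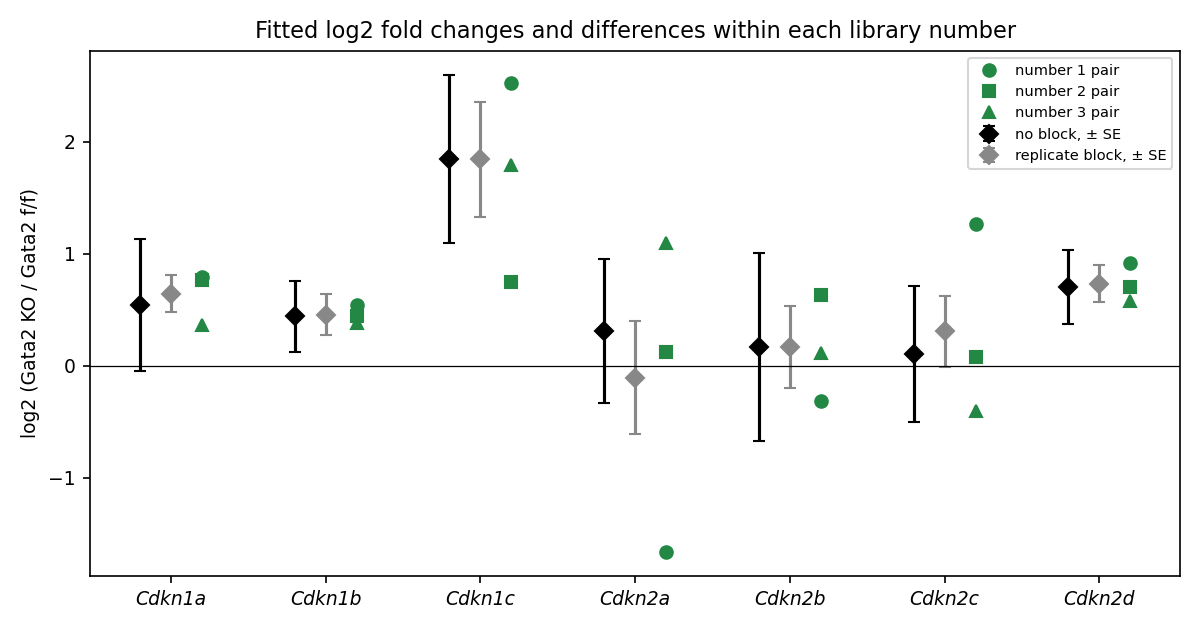
Log2 ratio of Gata2 KO to Gata2 f/f for each inhibitor gene: the fit without a block (black) and with the library number as a block (grey), each ± SE, and the difference within each number (green, prior count of 2). The green points of Cdkn1a, Cdkn1b, Cdkn1c and Cdkn2d all lie above 0, while those of Cdkn2a, Cdkn2b and Cdkn2c lie on both sides.

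Some inhibitor genes were called between library numbers, where none was between genotypes. Both libraries numbered 3 were above all 4 others for Cdkn1a, Cdkn1b, Cdkn2a, Cdkn2b and Cdkn2c, 5 of 7 members, against 21.1% of tested genes. In a joint test of the number, beside genotype, edgeR called Cdkn1a (adjusted p = 0.0137) and Cdkn2b (adjusted p = 0.0384), 2 of 7 members where 9.09% of genes were called. With upper-quartile scaling edgeR also called Cdkn2c (adjusted p = 0.0484). The DESeq2 likelihood ratio test called 21.6% of genes, and Cdkn1a (adjusted p = 5.16e-10), Cdkn2c (0.000342), Cdkn2b (0.00601) and Cdkn2d (0.0284) among them. The mean of the libraries numbered 3 was 2.77 times that of the other 4 for Cdkn1a, 4.12 times for Cdkn2b, 2.49 times for Cdkn2c, 2.16 times for Cdkn2a and 1.54 times for Cdkn1b. Cdkn2d and Cdkn1c were not split in this way, because the library labelled KO 1 exceeded Gata2 f/f 3 for both, although the same ratio was 3.02 for Cdkn1c and 1.64 for Cdkn2d.

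Monocyte and macrophage markers were high in the same pair of libraries, and late neutrophil markers less evenly so. The summed level of the 14 monocyte and macrophage markers was 872, 1030 and 3160 CPM for Gata2 f/f and 1440, 1230 and 3980 CPM for Gata2 KO. That of the 14 late neutrophil markers was 305, 601 and 2150 CPM against 1930, 641 and 4060 CPM. The 17 proliferation genes summed to 4810, 4590 and 3180 CPM for Gata2 f/f and 4880, 4430 and 2090 CPM for Gata2 KO. Apart from Gata2 f/f 1 and 2, whose places were exchanged, libraries with more Cdkn1a had more monocyte and macrophage transcripts, and the pair with the most also had the fewest proliferation transcripts. Cdkn2a and Cdkn2b did not follow this order. Both were lowest in Gata2 KO 1, where the sums of either marker list were above those of Gata2 f/f 1, f/f 2 and KO 2. Of the 13 late neutrophil markers tested 11 had positive log2 fold changes between genotypes (median 1.57), as had 12 of 14 monocyte and macrophage markers (median 0.41), and edgeR called none. The 6 T cell markers summed to between 0.627 and 2.98 CPM, with Cd4 at 0.0543 CPM in 1 library and 0 in the other 5. The 8 erythroid markers summed to between 3.02 and 12.1 CPM. The part of cell maturation in the inhibitor levels was not tested.

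**Figure D4:**
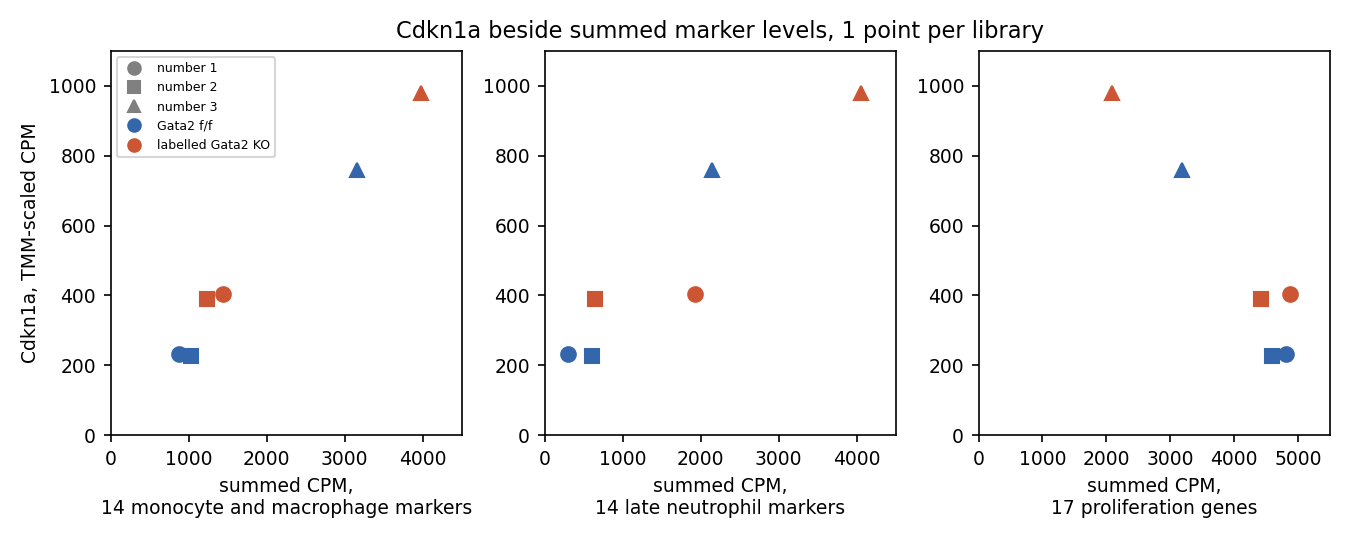
Cdkn1a (vertical axis, TMM-scaled CPM) against the summed CPM of monocyte and macrophage markers, late neutrophil markers and proliferation genes (horizontal axes), 1 point per library, colour for genotype label and shape for number. Both triangles of number 3, at 758 and 979 CPM of Cdkn1a, lie to the right in the first pair of panels and to the left in the last.

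The genes whose profile was most like each inhibitor's were listed by Pearson's r of log2 CPM over the 6 libraries, among the protein-coding genes with a mean of at least 5 CPM (9471, or 9472 for Cdkn1c and Cdkn2b, which fall below it themselves). The 6 libraries differ in depth, genotype label and number. Genes were picked for the highest r among all these candidates, so r is a description. For Cdkn1a they were the interferon-induced Bst2 (r = 0.998), the chemokine receptor Ccr1 (0.998) and the lysosomal protease cathepsin B, Ctsb (0.998). Ctsb had 396, 405 and 2570 CPM for Gata2 f/f against 827, 929 and 3830 CPM for Gata2 KO. For Cdkn1b they were AI413582, Pmp22 and Alkbh6 (r of at least 0.99). Cdkn1c was nearest to Scarb1, Lmo1 and Klhdc3, and Cdkn2d to the myeloid receptor gene Cd300ld, to Cog8 and to Cdk2ap2. The profile of Cdkn2a was closest to Gmpr, Serf2 and Fbxo4, that of Cdkn2b to the proteasome activator Psme2, to Tob1 and to the complement gene C1qb, and that of Cdkn2c to Homer3, Abcc5 and Rassf4. Between members, r was highest for Cdkn1c and Cdkn2d (0.96) and lowest for Cdkn2a and Cdkn2c (0.13).

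Some neighbours of the inhibitor genes followed the same libraries and others did not. Trp53cor1, the lincRNA-p21 gene that is itself known as a p53 target, lies 11797 bases from Cdkn1a on the opposite strand. Its levels were 2.68, 3.12 and 2.79 CPM for Gata2 f/f and 2.96, 3.37 and 2.65 CPM for Gata2 KO, a narrow band beside the 4.29-fold range of Cdkn1a. Rab44, 13418 bases from Cdkn1a, was lowest in both libraries numbered 3 (47.5 and 55.3 CPM, against 85.1 to 141). Srsf3, 47603 bases from Cdkn1a, had 616 and 425 CPM in number 3, close to the 617 and 433 CPM of number 1. Near Cdkn1b, the lincRNA gene Lockd had 0.398 to 1.43 CPM and Gpr19 1.30 to 2.15 CPM. Slc22a18, an imprinted neighbour of Cdkn1c at 12686 bases, had 1.54, 2.05 and 8.21 CPM for Gata2 f/f and 1.77, 2.66 and 17.1 CPM for Gata2 KO. It was thus highest in number 3, where Cdkn1c was highest in each genotype too. Kcnq1ot1, the long non-coding RNA that silences this imprinted domain on the paternal copy, had 8.78, 1.83 and 1.51 CPM for Gata2 f/f and 4.44, 2.82 and 4.50 CPM for Gata2 KO. Near Cdkn2d, Kri1, 441 bases away, was lowest in number 3 (13.7 and 11.3 CPM), while Cdkn2d was highest there in each genotype. Atg4d (33.7 and 43.4 CPM) and Slc44a2 (199 and 259 CPM) were also highest in number 3 of each genotype. For Slc44a2 the margin was small, with 195 CPM in f/f 1 and 256 CPM in KO 1. Ap1m2 was highest in KO 3 (47.6 CPM), but among Gata2 f/f it was highest in f/f 1 (22.8 CPM). Keap1 was highest in number 1 of each genotype (82.9 and 109 CPM). Faf1, 9399 bases from Cdkn2c, ranged from 91.4 to 129 CPM. The counting is not stated to use strand, so reads of overlapping or antisense transcripts may be included in a member's count.

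The edgeR test called none of the kinases and cyclins that the inhibitors act on, with or without the block. Of 15 tested, 2 had positive log2 fold changes (median -0.22), 2 were higher in the KO library for each number, against 20.7% of all tested genes, and 9 were lower, against 17.7%. With the block, 1 was at an unadjusted p under 0.05 upward and 1 downward, the latter against 3.3% of all genes. The D-type cyclins, partners of CDK4 and CDK6, differed among themselves. Ccnd2 had 106, 95.8 and 206 CPM for Gata2 f/f against 36.8, 55.7 and 120 CPM for Gata2 KO, a log2 fold change of -0.94 ± 0.50 (edgeR, adjusted p = 1.00). In each number the KO library was lower, and the blocked DESeq2 fit gave an adjusted p of 0.00229. That fit called 1.75% of genes. Of the kinases and cyclins only Ccnd2 and Ccnd3 were looked up in it, and Ccnd3 was not called. The unblocked edgeR value of Ccnd2 was -0.54 when f/f 3 was left out and -1.57 when KO 3 was. Ccnd3 had 193, 186 and 353 CPM and 398, 235 and 398 CPM, a log2 fold change of 0.50 ± 0.35 (edgeR, adjusted p = 1.00), which ranged from 0.31 without f/f 1 to 0.82 without f/f 3. Ccnd1 was low outside number 3, with 17.6 and 11 CPM there and 0.764 to 1.38 CPM in the other 4 libraries. Cdk6, on which MLL-rearranged leukaemia cells are known to depend, ran from 474 to 650 CPM, Cdk4 from 337 to 505 and Cdk2 from 34.3 to 78.8 CPM, the last lowest in Gata2 KO 3. The cyclin E genes ran from 40.5 to 47.6 CPM for Ccne1 and from 25.5 to 68.0 CPM for Ccne2.

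Downstream, 5 of 13 pocket protein and E2F genes had positive values (median -0.25) and edgeR called none. E2f2, an activating E2F, had 46.8, 38.1 and 57.6 CPM for Gata2 f/f and 112, 70.3 and 68.5 CPM for Gata2 KO. Its groups did not overlap, and its log2 fold change was 0.82 ± 0.29 (edgeR, adjusted p = 1.00), with 0.53 without KO 1 as the lowest value when 1 library was left out. E2f6, a repressive member, had 64.0, 54.9 and 45.6 CPM against 43.0, 43.4 and 27.8 CPM, again without overlap and in the other direction. Of the 13, 1 lay wholly higher in Gata2 KO, against 2.64% of tested genes. Another 2, E2f6 and E2f5, lay wholly lower, and the share of all genes for that is not given here. E2f2 and E2f6 were named for the smallest p in their list, so their separation is a description. Rb1 ran from 25.1 to 37.1 CPM in Gata2 f/f and from 20.6 to 26.5 CPM in Gata2 KO. Rbl2, the p130 pocket protein of resting cells, ran from 46.1 to 55.3 CPM and from 24.6 to 60.6 CPM. Proliferation genes had 5 of 17 positive values (median -0.15).

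The edgeR test called no regulator of the inhibitor genes on the lists. Trp53 had 191, 166 and 179 CPM for Gata2 f/f and 197, 181 and 186 CPM for Gata2 KO (log2 fold change 0.07 ± 0.20; edgeR, adjusted p = 1.00), while Cdkn1a ranged 4.29-fold over the same libraries. The Trp53 transcript level does not measure p53 protein or its activity, and the part of p53 in the Cdkn1a range was not tested. Mdm2, both a p53 target and its ubiquitin ligase, had 122, 102 and 239 CPM and 142, 119 and 171 CPM. Other p53-activated genes had 17 of 26 positive values (median 0.23), 10 of 26 were higher and 4 lower in the KO library for each number, against 20.7% and 17.7% of all tested genes. In both libraries numbered 3, 15 of 26 were higher and 4 lower than in the other 4 libraries, against 21.1% and 20.4%. With the block, 7 of 26 were at an unadjusted p under 0.05 upward (edgeR), against 7.41% of all genes. Perp was the 1 gene under that value downward, against 3.3%. Bax, a death effector, had 97.8, 106 and 123 CPM against 122, 128 and 196 CPM, and Dcxr 31.9, 36.3 and 69.3 CPM against 47.8, 48.1 and 143 CPM. Perp went the other way, from 12.8, 8.38 and 3.47 CPM to 0.573, 3.96 and 0.798 CPM. Its log2 fold change was -2.21 ± 0.83 (edgeR, adjusted p = 1.00), and the blocked DESeq2 fit called it (adjusted p = 0.00181). That fit called 1.75% of genes, and of the 26 only Perp was looked up in it. Without KO 2 the unblocked edgeR value was -3.57 (adjusted p = 0.915), and with the block it was -3.27 and called (edgeR, adjusted p = 0.0138). Without f/f 1 the unblocked value was -1.78.

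Of the 16 transcriptional activators 11 had positive values (median 0.12), among them Kdm6b, a demethylase of the repressive H3K27 mark, with 31.1, 19.7 and 28.8 CPM against 52.1, 32.2 and 34.2 CPM. The groups of Kdm6b did not overlap. It was the 1 activator of 16 wholly higher in Gata2 KO, against 2.64% of tested genes, and was named for its small p. Cebpe, a granulocyte factor, ran from 54.2 to 77.5 CPM and from 65.7 to 85.4 CPM, and Klf4 was highest in number 3 (8.48 and 9.03 CPM, against 1.34 to 4.35). Of 18 repressors tested, 9 had positive values (median -0.02). Bmi1, the Polycomb protein that silences Cdkn2a, had 61.0, 69.8 and 49.8 CPM for Gata2 f/f and 49.2, 58.8 and 27.8 CPM for Gata2 KO, a log2 fold change of -0.41 ± 0.32 (edgeR, adjusted p = 1.00). The value ranged from -0.18 without KO 3 to -0.65 without KO 2, and any part of Bmi1 in the Cdkn2a level was not tested. Myc, which represses several inhibitor genes, ran from 145 to 220 CPM and from 97.1 to 221 CPM.

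Genes for the breakdown of p21, p27 and p57 had 2 of 13 positive values (median -0.12), and edgeR called none. Cul4b, a scaffold of the ligase that degrades p21 on chromatin, had 73.6, 83.9 and 70.5 CPM for Gata2 f/f and 55.3, 67.1 and 39.4 CPM for Gata2 KO, without overlap (log2 fold change -0.50 ± 0.25; edgeR, adjusted p = 1.00). It was named for its small p and was the 1 gene of 13 wholly lower in Gata2 KO. The share of all genes for that arrangement is not given here. Dtl, which brings p21 to that ligase, had 65.1, 68.2 and 38.3 CPM against 46.4, 58.5 and 20.6 CPM (-0.45 ± 0.42; edgeR, adjusted p = 1.00). The Dtl value was -0.15 without KO 3 and -0.78 without KO 2, and that of Cul4b was -0.33 and -0.69. Skp2, the receptor through which p27 is degraded, had 37.5, 48.5 and 31.1 CPM against 35.3, 42.0 and 16.2 CPM, so the KO library was the lower one in each number. Transcript levels do not measure the inhibitor proteins, whose amounts depend on this breakdown.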

How the data were processed

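The authors deposited 1 table of whole-number counts per gene for 6 poly(A) RNA libraries, not normalised. Among tools and builds, HTSeq, kallisto, DESeq2 and mm10 appear in the submitters' processing notes, while annotation and strand setting were not given in the sources used here. Symbols and coordinates came from GENCODE M21 (GRCm38) by identifier without version (49326 of 49585 matched), and promoter bases from RefSeq (GRCm38.p6). Genes were kept by filterByExpr (minimum count 10), scaled by TMM and tested with edgeR's quasi-likelihood test, without a block, with Benjamini-Hochberg adjustment at 0.05. Levels are CPM on the TMM scale. Software versions were 4.3.3 for R, 1.42.0 for DESeq2, 3.58.1 for limma and 4.0.16 for edgeR. The edgeR test was also run on simulated data, but its power at the spread of these libraries is not given here. That run therefore does not show how many real differences the test could miss. The members, lists and tests were chosen with earlier results of these data known. Genes beyond the 7 were named by rule: fixed regulators and partners, up to 4 of smallest p in each list, neighbours within 50 kb with at least 1 CPM, and the 3 most similar profiles. The marker Cd4 was added outside that rule, after its values were seen. A marker withheld for evaluation is not reported here.

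Pairing by number was examined through deviations of log2 CPM (prior count 2) from the group means. These correlated at 0.294, 0.555 and 0.653 for numbers 1, 2 and 3, highest for number 3. Deviations from a group mean balance out, so a split of number 3 alone also makes libraries numbered 1 and 2 correlate. The main test leaves the number out, and the fit with it as a block is the alternative given beside the results. Libraries of different numbers also correlated, f/f 1 with KO 2 at 0.455 and f/f 2 with KO 1 at 0.104. As f/f 1 was thus closer to KO 2 than to KO 1, the pairing of numbers 1 and 2 is not established. The labels do not say that samples were separate cultures or animals, so the p-values cover only the spread seen among these samples, which may be technical. The labels name no molecular identifiers. Other scalings, filters, tools, the block and left-out libraries were tried as alternatives.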

Additional observations from a re-analysis of the deposited data

How the results depend on the processing

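With the main test edgeR called 0 genes. DESeq2 called 7, DESeq2 with the replicate block 222, and edgeR with the block and without the library labelled Gata2 KO 2 called 54; the replicate block alone called 0, as did other scalings, filters, limma voom and each omission of 1 library without a block. No member was called in any of these. The 7 positive members became 3 without Gata2 KO 3 and stayed between 5 and 7 when another library was left out. The number of genes called between library numbers was 1249 with edgeR, 1556 with upper-quartile scaling and 2850 with DESeq2.

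Cdkn1b, Cdkn1c and Cdkn2d kept a positive log2 fold change under all 16 alternatives (0.20 to 0.68, 1.08 to 2.52 and 0.45 to 1.02). That of Cdkn2a turned with limma voom (-0.14), the replicate block (-0.11), DESeq2 with the block (-0.14), the block without KO 2 (-0.26) and without both libraries numbered 3 (-0.52). Cdkn2b turned with the block without KO 2 (-0.084). With each library left out in turn the ranges were -0.054 to 1.32 for Cdkn1a, -0.59 to 0.75 for Cdkn2a, -0.83 to 1.23 for Cdkn2b and -0.27 to 1.02 for Cdkn2c. The negative values came without Gata2 KO 3 for all 4 (-0.054, -0.59, -0.83 and -0.23), and also without Gata2 f/f 1 (-0.21 for Cdkn2b, -0.27 for Cdkn2c) and without Gata2 f/f 2 (-0.15 and -0.19). The cause was not tested. At 3 counts, Cdkn1c in Gata2 f/f 1 was at the limit of depth.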
